A study of Mus musculus with 26 samples.

Results

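The genes described here, 35 of DNA replication and S phase, were measured in left lungs of mice exposed to ozone (O3). They are a fixed list of replication factors and enzymes of nucleotide supply, found by gene symbol in the platform annotation, and all 35 were found among the 12394 genes on the arrays. Male mice of 6 to 8 weeks breathed 0.3 ppm O3 for 23.5 hr/day over 24, 48, or 72 hr, or filtered air over 24 or 48 hr. Il10+/+ mice were of the strain C57BL/6 and Il10-/- mice of the strain that the labels spell B6.129P2-Il10tmlCgn/J, in which interleukin-10, a cytokine that restrains inflammation, is knocked out in every cell. In each genotype, 2 arrays were of 24 hr of air, 2 of 48 hr of air, and 3 of each O3 time, giving 26 Affymetrix arrays. There was no 72-hr air group, so the 4 air arrays of a genotype served as its control at all 3 times.

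Before a cell divides it copies its DNA once, in S phase. The MCM complex is loaded on origins by the licensing factors Cdc6 and Cdt1 and unwinds the DNA, primase and the DNA polymerases make new strands, and the sliding clamp PCNA holds the polymerases on the template while its loader, the RPA complex, Fen1, and ligase serve the fork. Ribonucleotide reductase, thymidine kinase, thymidylate synthase, and dUTPase supply or protect the pool of deoxynucleotides. Many of these genes are transcribed under E2F factors as cells leave quiescence, and in a resting adult lung few cells are in S phase. In a whole lobe, fewer cells of a type and less RNA per cell cannot be told apart.

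All values below are log2 expression values after Robust Multichip Average processing, and a change is a difference of group means on that scale, so that a change of 1 is a doubling. The array of Il10-/- mice at 24 hr of O3 named replicate 2 stood apart and was left out of every test, and counts with it are given in the account of how the results depend on the processing. On it the mean over 7 markers of alveolar type 2 cells was lower than in Il10+/+ air by 6.53, while on the other 25 arrays that mean lay between -0.08 and 0.16 of it. All 35 replication genes were higher on this array than on each of the 25 others, with a median difference of 2.58 from the mean of the other arrays of its group. Rrm2 reached 11.63 there, and 34 of the 35 differed by over 1. A second array went against its label at the targeted gene: the Il10 probe set lay between 6.29 and 7.71 on the arrays of Il10-/- mice and between 3.92 and 4.25 on those of Il10+/+ mice, but was 3.87 on the array labelled Il10-/- air 48 hr replicate 1. Which part of the gene this probe set covers is not given in the sources used here, so its level settles neither the genotype nor the amount of Il10 mRNA. The study itself detected no Il10 mRNA in lung homogenates of Il10-/- mice. That array was kept under its label, and the counts against air and the values of Mcm6 are also given without it. Medians over the 12394 genes lay between 7.14 and 7.31 per array, and the number of arrays limits the precision.

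The replication genes were near their air level at 24 hr of O3 in Il10+/+ mice. They were higher than air at 48 hr in both genotypes and remained above air at 72 hr. On the mean over the 35 genes, set to 0 in Il10+/+ air, the 4 Il10+/+ air arrays lay between -0.07 and 0.06 and the 4 Il10-/- air arrays between -0.19 and -0.11. At 24 hr the 3 Il10+/+ arrays lay between -0.04 and 0.12. At 48 hr the Il10+/+ arrays lay between 0.76 and 0.92 and the Il10-/- arrays between 0.78 and 0.88. At 72 hr they lay between 0.73 and 0.92 and between 0.65 and 0.74. Every array of 48 and 72 hr was thus above every air array of either genotype on this mean.

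**Figure D1:**
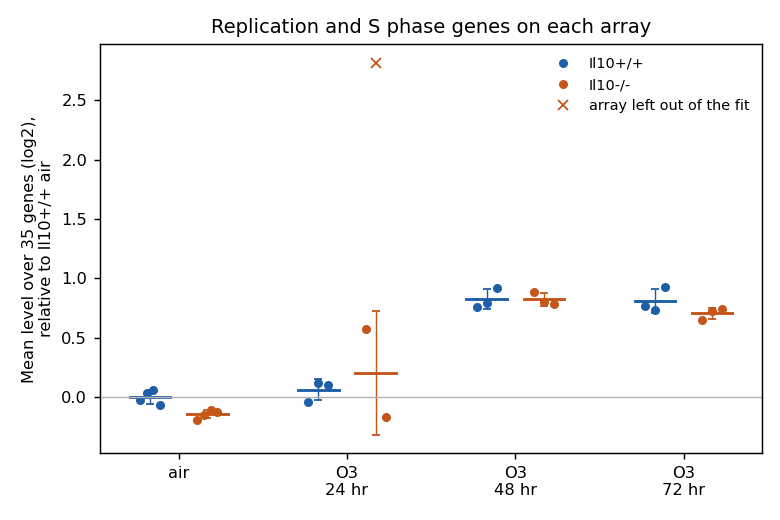
Mean log2 level over the 35 replication and S phase genes on each of the 26 arrays, relative to the Il10+/+ air mean, by exposure (x axis) and genotype (colour). Points are arrays, bars are group means with SD, and the cross is the array left out of the tests at 2.82, far above the 48-hr and 72-hr arrays, which all lie between 0.65 and 0.92.

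Gene by gene, in limma with Benjamini-Hochberg adjustment over all 12394 genes and a threshold of 0.05, 25 of the 35 were higher than air at 48 hr in Il10+/+ mice, against 2.71% of all genes. In Il10-/- mice 30 were higher at 48 hr, against 4.04% of all genes. At 72 hr 24 were higher in Il10+/+ mice (2.47% of all genes) and 26 in Il10-/- mice (4.25% of all genes). None of the 35 was lower than air at any time in either genotype, against 0% to 2.29% of all genes by time and genotype. The median change at 48 hr was 0.72 in Il10+/+ mice, with a range from 0.05 to 2.61, and 0.93 in Il10-/- mice, with a range from 0.29 to 2.76. At 72 hr the medians were 0.69 and 0.77. Without the array labelled Il10-/- air 48 hr replicate 1, the counts at 24, 48, and 72 hr were 0, 25, and 22 in Il10+/+ mice. For Il10-/- they were then 4, 27, and 24. Shares over all genes are not given for this refit, and the percentages above belong to the fit with that array.

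The arrays themselves rarely overlapped. At 48 hr every O3 array was above every air array for 33 genes in Il10+/+ mice, against 8.92% of all genes, and for 32 genes in Il10-/- mice, against 8.58%. At 72 hr this was so for 31 genes in Il10+/+ mice (9.34% of all genes) and 33 in Il10-/- mice (11.5%). The genes that overlapped at 48 hr were Pold1 and Tyms in Il10+/+ mice, and Rpa1, Fen1, and Tyms in Il10-/- mice. In an F test over the exposures of both genotypes, 34 of the 35 passed, against 17.2% of all genes, and Tyms did not (adjusted p = 0.17 in limma).

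**Figure D2:**
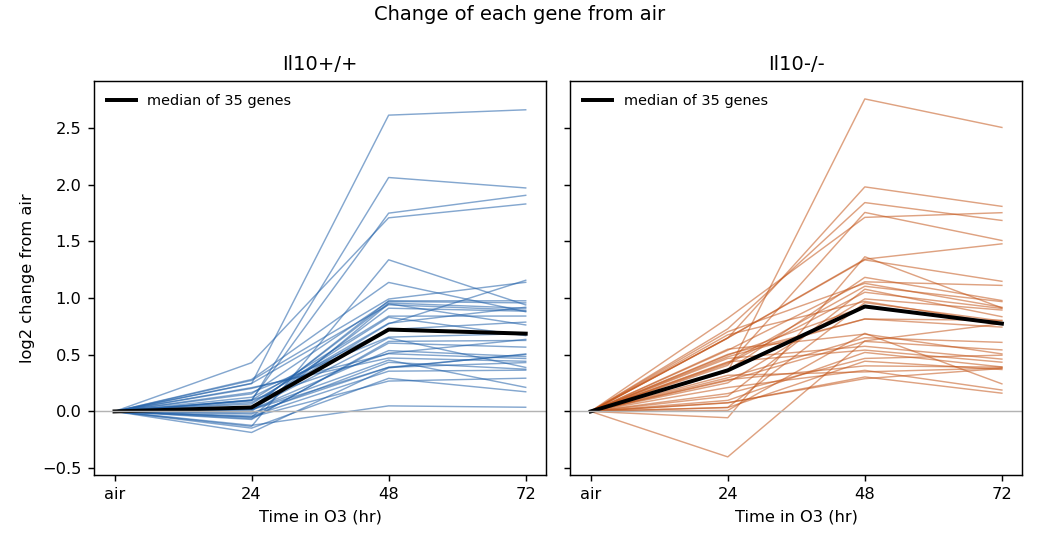
Change of each of the 35 genes from the air mean of its genotype (y axis, log2) against time in O3 (x axis, hr) in Il10+/+ mice (left) and Il10-/- mice (right). Thin lines are genes and the thick line is their median, which is 0.04 at 24 hr, 0.72 at 48 hr, and 0.69 at 72 hr on the left, against 0.36, 0.93, and 0.77 on the right.

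The onset, the first O3 time at which a gene passed against air, was 48 hr for most genes. In Il10+/+ mice it was 48 hr for 25 genes, 72 hr for Prim2 and Mcm2, and no time for 8. Values in Il10-/- mice were 24 hr for Mcm7, Gins1, and Rpa2, 48 hr for 27 genes, and no time for 5. The step from 24 to 48 hr was itself tested. In Il10+/+ mice 17 genes were higher at 48 than at 24 hr, against 0.815% of all genes, with a median difference of 0.69. In Il10-/- mice 12 were higher, against 1.97% of all genes, with a median difference of 0.43. These 2 counts rest on single arrays: the first was 7 without Il10+/+ O3 24 hr replicate 1 and 8 without O3 48 hr replicate 3, and the second was 25 without Il10-/- O3 24 hr replicate 1, 4 without its replicate 3, 6 without O3 48 hr replicate 1, and 7 without O3 48 hr replicate 3. Without the array labelled Il10-/- air 48 hr replicate 1 they were 17 and 13. Shares over all genes are not given for these refits.

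The peak, the O3 time with the highest group mean, was 48 hr for 19 genes and 72 hr for 16 in Il10+/+ mice, and 48 hr for 29 and 72 hr for 6 in Il10-/- mice. This order is a description only, because no gene was shown to differ between 72 and 48 hr. None of the 35 passed in limma in either genotype, and 0% of all genes did. An unadjusted p under 0.05 was found for 204 of all genes in Il10+/+ mice and 329 in Il10-/- mice. Among the 35 it was found for 2 genes in each genotype. These were Rfc4 (higher at 72 hr by 0.38) and Hells (-0.40) in Il10+/+ mice, and Mcm10 (-0.45) and Hells (-0.45) in Il10-/- mice. Hells, a chromatin remodeler of the SNF2 family, thus had its lower mean at 72 hr in both genotypes, with 95% intervals of the difference from -0.72 to -0.08 and from -0.77 to -0.13. Hells was named because of its unadjusted p, so these intervals, which are not adjusted either, do not show a fall. The interval of the difference lay within 1 in either direction for 35 genes in Il10+/+ mice and 34 in Il10-/- mice, and within 0.5 for 23 and 22.

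Nucleotide supply held the genes at ranks 1 and 3 of the mean change over 48 and 72 hr of both genotypes. Rrm2, the small subunit of ribonucleotide reductase whose level is tied to S phase, was 5.80, 5.83, 6.17, and 5.58 on the Il10+/+ air arrays. It was 8.18, 8.46, and 8.74 at 48 hr and 8.41, 8.36, and 8.73 at 72 hr. All 6 of these arrays were above the highest air array by over 2. Among Il10-/- arrays it was 5.49, 5.92, 5.27, and 6.05 in air, 8.86, 8.32, and 8.14 at 48 hr, and 8.19, 8.27, and 8.10 at 72 hr. The change at 48 hr was 2.61 (SE 0.39, 6.12-fold, adjusted p = 0.000284 in limma) in Il10+/+ mice and 2.76 (SE 0.39, 6.76-fold, adjusted p = 9.86e-05 in limma) in Il10-/- mice. At 72 hr it was 2.66 and 2.51 (SE 0.39).

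Tk1, the cytosolic thymidine kinase that salvages thymidine, was 5.09, 5.48, 5.09, and 5.13 in Il10+/+ air and 6.88, 6.86, and 7.09 at 48 hr. For Il10-/- mice the values were 4.97, 5.05, 4.81, and 5.30 in air and 7.17, 6.93, and 6.94 at 48 hr. The groups were over 1 apart in both genotypes, and the changes were 1.75 (SE 0.16, adjusted p = 4.8e-06 in limma) and 1.98 (SE 0.16, adjusted p = 1.99e-07). Rrm1, the large subunit of ribonucleotide reductase, was 7.67, 7.94, 7.55, and 7.39 in Il10+/+ air and 8.37, 8.65, and 8.87 at 48 hr. The Il10-/- arrays gave 7.62, 7.67, 7.88, and 7.58 in air and 8.86, 8.68, and 8.83 at 48 hr. Rrm1 changed by 0.99 (SE 0.14, adjusted p = 0.000203 in limma) in Il10+/+ mice and by 1.10 (SE 0.14, adjusted p = 3.13e-05) in Il10-/- mice. Dut, the dUTPase that keeps uracil out of DNA, was higher at 48 hr by 0.62 in Il10+/+ mice and by 1.05 in Il10-/- mice, and passed at 48 and 72 hr in both.

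Tyms, thymidylate synthase, was the 1 gene of nucleotide supply that passed in no comparison with air. It was 4.08, 4.03, 4.21, and 4.12 in Il10+/+ air and 4.10, 4.08, and 4.29 at 48 hr. Values in Il10-/- mice were 4.03, 4.30, 3.90, and 3.83 in air and 4.31, 4.12, and 4.52 at 48 hr. The groups overlapped in both genotypes, with changes of 0.05 (SE 0.10, adjusted p = 0.858 in limma) and 0.30 (SE 0.10, adjusted p = 0.0772). The Il10-/- change at 48 hr passed under some other settings: with air of the same exposure time (0.45, adjusted p = 0.0227), with array weights (0.28, adjusted p = 0.0419), without air 24 hr replicate 2 (0.40, adjusted p = 0.0115), and without O3 48 hr replicate 2 (0.40, adjusted p = 0.041). Its other 2 probe sets had means of 3.81 and 3.98 and were likewise not higher at any time. In a fit over all probe sets one of them was lower at 48 hr in Il10+/+ mice (-0.28, adjusted p = 0.0403 in limma). On the left-out array, where all 35 genes were high, Tyms was 5.59. On the other arrays its level was low, near that of the Il10 probe set in Il10+/+ mice (3.92 to 4.25). Whether its probe sets could show a small change of the transcript was not tested. A further probe set of Tyms, which carries several symbols, was not used.

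Of the 6 MCM subunits, 4 were higher at 48 hr in Il10+/+ mice and 5 in Il10-/- mice, and at 72 hr 5 and 5. The median change of the 6 was 0.84 and 0.95 at 48 hr. Mcm5, whose change was the fourth largest of the 35, was 6.33, 6.07, 6.31, and 6.20 in Il10+/+ air and 7.96, 7.91, and 7.94 at 48 hr. Among Il10-/- arrays it was 6.02, 6.00, 6.35, and 6.26 in air and 7.89, 7.75, and 7.97 at 48 hr. The change was 1.71 in both genotypes (SE 0.23, adjusted p = 0.000127 and 6.72e-05 in limma), and 1.83 and 1.75 at 72 hr. Mcm3, Mcm4, and Mcm7 rose by 0.72 to 0.84 in Il10+/+ mice at 48 hr and by 0.82 to 0.97 in Il10-/- mice, and each passed at 48 and 72 hr in both genotypes.

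Mcm2 depended on the probe set. The probe set with the higher mean changed by 0.39 at 48 hr in Il10+/+ mice (adjusted p = 0.0837 in limma) and by 0.40 in Il10-/- mice (adjusted p = 0.0511), and passed only at 72 hr in Il10+/+ mice, with 0.50. A second probe set of Mcm2 changed by 1.11 (SE 0.21, adjusted p = 0.00482) and 1.46 (SE 0.21, adjusted p = 0.000197) in a limma fit over all probe sets. Fen1, the flap nuclease of Okazaki fragments, showed the same kind of difference, with changes at 48 hr of 0.51 and 0.36 by the probe set used and of 1.04 and 1.20 by its other probe set. Of the 30 probe sets of the 35 genes that were not used, 14 were higher at 48 hr in Il10+/+ mice and 17 in Il10-/- mice, and 1, of Tyms, was lower. The share of all probe sets that passed in this fit is not given, so these counts are not set against a background.

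Of the 5 genes of origin licensing and firing, 4 were higher at 48 hr in Il10+/+ mice and all 5 in Il10-/- mice. Cdt1 was higher by 0.95 (SE 0.21) and 1.34 (SE 0.21), and Cdc6 by 1.14 (SE 0.15) and 0.99 (SE 0.15). Gins1, a subunit of the GINS complex that joins the helicase, was higher by 0.94 (SE 0.12) and 1.13 (SE 0.12). Mcm10 rose by 0.51 and 0.69 at 48 hr, but at 72 hr it passed only in Il10+/+ mice (0.64), with 0.24 (adjusted p = 0.346 in limma) in Il10-/- mice. The change at 72 hr was not shown to differ between the genotypes. Cdc45, the helicase cofactor, changed by 0.54 (adjusted p = 0.0593) in Il10+/+ mice and rose by 0.62 in Il10-/- mice.

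Of the 6 genes of polymerases and primase, 3 were higher at 48 hr in Il10+/+ mice (Pole, Pola1, and Prim1) and all 6 in Il10-/- mice. Pole, the catalytic subunit of the leading-strand polymerase, was higher by 0.98 and 0.96 (SE 0.19). Prim1, the catalytic subunit of primase, was higher by 0.91 and 1.14 (SE 0.13). Pold1 and Pold2, subunits of the lagging-strand polymerase, changed by 0.27 and 0.47 in Il10+/+ mice and did not pass there, nor did Prim2, the large subunit of primase, with 0.38 (adjusted p = 0.0818 in limma). In Il10-/- mice Pold1 and Pold2 rose by 0.54 and 0.57 at 48 hr and did not pass at 72 hr, and Prim2 rose by 0.82 and 0.80. Pola1, the catalytic subunit of the polymerase that works with primase, was higher by 0.60 and 0.62 at 48 hr (SE 0.15).

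Of the 8 genes of the clamp, its loader, RPA, and Okazaki fragment joining, 6 were higher at 48 hr in Il10+/+ mice and 5 in Il10-/- mice. Rfc4, a subunit of the clamp loader, was 5.55, 5.68, 5.43, and 5.54 in Il10+/+ air, 6.36, 6.47, and 6.14 at 48 hr, and 6.56, 6.60, and 6.96 at 72 hr. For Il10-/- mice the values were 5.21, 4.92, 5.22, and 5.55 in air, 6.16, 6.78, and 6.77 at 48 hr, and 6.61, 6.66, and 6.85 at 72 hr. It changed by 0.77 (SE 0.17, adjusted p = 0.0118 in limma) and 1.34 (SE 0.17, adjusted p = 3.11e-05) at 48 hr, and without Il10+/+ O3 48 hr replicate 2 the first did not pass (0.70, adjusted p = 0.0687). Rfc5, a further loader subunit, was higher by 0.78 and 1.08 (SE 0.17). Lig1, the ligase of the lagging strand, was higher by 0.97 and 1.18 (SE 0.17), and Pcna by 0.66 and 0.65 (SE 0.12).

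Rfc3 and Rpa1 passed in no comparison with air. Rfc3, another subunit of the clamp loader, was 5.96, 6.20, 6.19, and 6.11 in Il10+/+ air and 6.58, 6.35, and 6.60 at 48 hr. The Il10-/- arrays gave 6.27, 6.16, 6.14, and 6.08 in air and 6.37, 6.47, and 6.52 at 48 hr. The O3 arrays were above the air arrays in both genotypes, with changes of 0.39 (SE 0.17, adjusted p = 0.231 in limma) and 0.29 (SE 0.17, adjusted p = 0.363). A second probe set of Rfc3 changed by 0.61 (adjusted p = 0.117) and 0.85 (adjusted p = 0.0125) in a limma fit over all probe sets. Rpa1, the large subunit of the complex that coats single-stranded DNA, was 10.15, 10.32, 10.38, and 9.97 in Il10+/+ air and 10.52, 10.54, and 10.42 at 48 hr. Values in Il10-/- mice were 10.15, 9.68, 9.99, and 10.04 in air and 10.36, 10.54, and 10.05 at 48 hr. These groups overlapped in Il10-/- mice, and the changes were 0.29 (SE 0.13, adjusted p = 0.255 in limma) and 0.35 (SE 0.13, adjusted p = 0.123). Both genes passed under some other settings. At 48 and 72 hr in Il10-/- mice Rfc3 passed with the mean of its probe sets (adjusted p = 0.031 and 0.0296) and with the letter c that ends some source names as a covariate (0.0433 and 0.0178), and Rpa1 with those 2 settings (0.0312 and 0.0214, 0.0274 and 0.0172) and with the replicate block (0.0472 and 0.0339). Rpa1 at 72 hr also passed without either Il10-/- O3 24 hr array (adjusted p = 0.0448 for each). With array weights Rfc3 passed in Il10+/+ mice at 48 and 72 hr (adjusted p = 0.0294 and 0.023) and Rpa1 at 48 hr (0.0163). Rpa2, the middle subunit of the same complex, rose by 0.65 and 0.68 at 48 hr (SE 0.12).

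**Figure D3:**
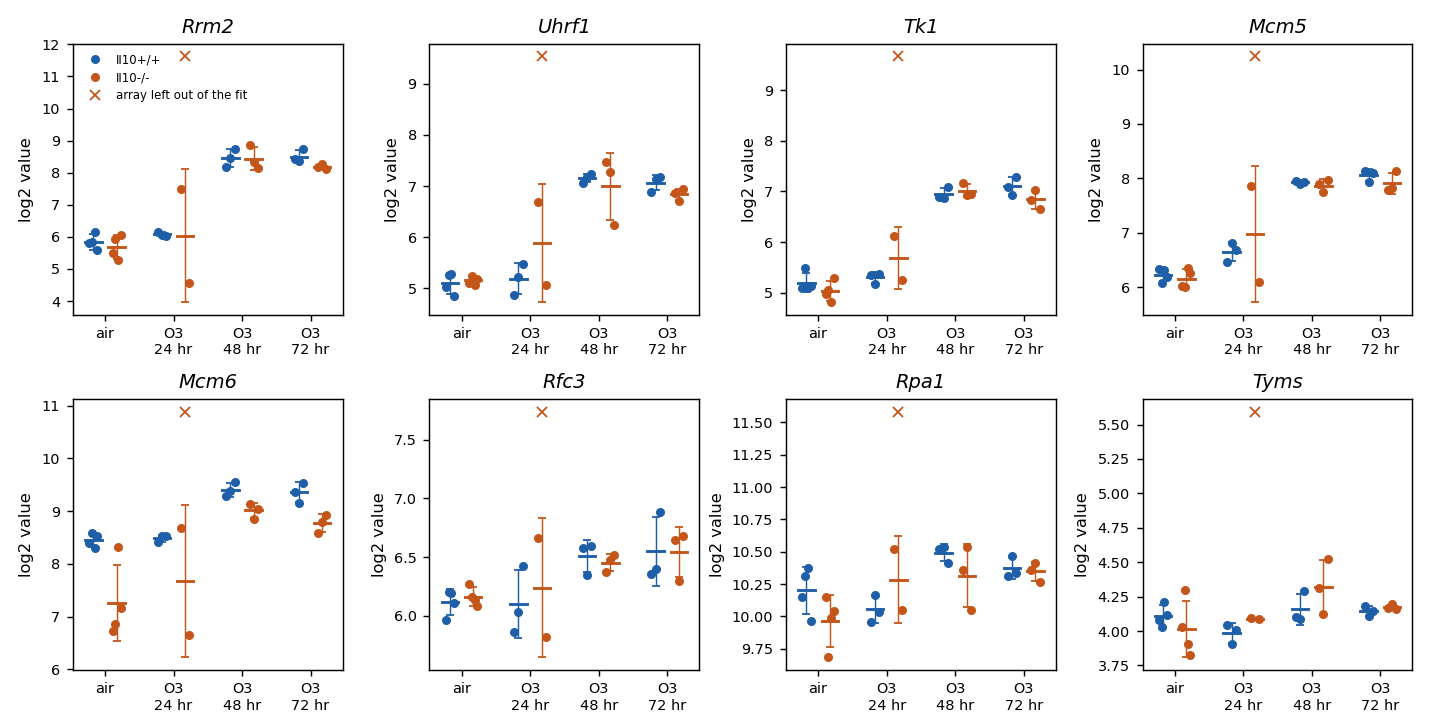
Log2 value on each array (y axis, own scale per panel) of the 5 genes with the largest mean change over 48 and 72 hr (Rrm2, Uhrf1, Tk1, Mcm5, and Mcm6) and of Rfc3, Rpa1, and Tyms, which passed in no comparison with air, by exposure and genotype. Bars are group means with SD and the cross is the array left out, which is the highest in each panel; Rrm2 is at most 6.17 in air and at least 8.10 at 48 and 72 hr.

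Among the genes of chromatin, DNA methylation, histone mRNA, and uracil repair, 4 of 5 were higher at 48 hr in Il10+/+ mice and all 5 in Il10-/- mice. Uhrf1, which recruits the maintenance methyltransferase to newly copied DNA, had the second largest mean change of the 35. It was 5.02, 5.25, 5.27, and 4.84 in Il10+/+ air and 7.06, 7.18, and 7.23 at 48 hr. Among Il10-/- arrays it was 5.10, 5.25, 5.07, and 5.19 in air and 7.47, 7.28, and 6.24 at 48 hr. The lowest 48-hr array was over 1 below the other two and still above all air arrays, and the changes were 2.06 (SE 0.27, adjusted p = 0.000109 in limma) and 1.84 (SE 0.27, adjusted p = 0.00016).

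Hells was 4.58, 4.66, 4.57, and 4.70 in Il10+/+ air, 5.91, 5.76, and 6.24 at 48 hr, and 5.75, 5.72, and 5.24 at 72 hr. For Il10-/- mice the values were 4.52, 4.40, 4.26, and 4.52 in air, 5.90, 5.96, and 5.51 at 48 hr, and 5.09, 5.46, and 5.46 at 72 hr. Both O3 times lay above air without overlap, with changes at 48 hr of 1.34 (SE 0.14, adjusted p = 1.34e-05 in limma) and 1.36 (SE 0.14, adjusted p = 3.49e-06). The maintenance methyltransferase Dnmt1 changed less, by 0.36 (adjusted p = 0.0749) and 0.47 (adjusted p = 0.00958 in limma). Slbp, which binds the stem-loop of histone mRNA, and Ung, the uracil glycosylase, rose by 0.43 to 0.52 in the 2 genotypes at 48 hr.

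**Figure D4:**
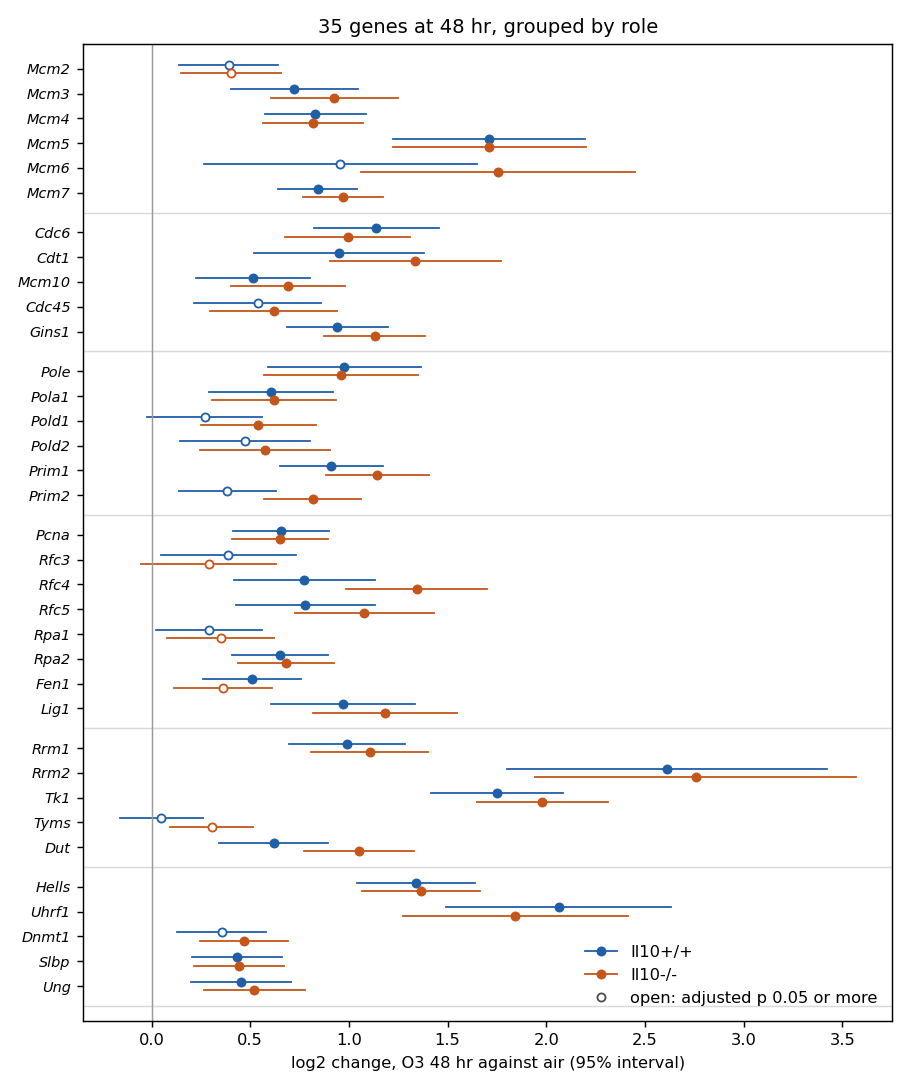
Change from air at 48 hr of O3 (x axis, log2) with its 95% interval for each of the 35 genes (y axis), grouped by role in the order of helicase, licensing and firing, polymerases and primase, clamp to ligase, nucleotide supply, and chromatin to uracil repair. Colours are genotypes and open points did not pass the threshold. All points lie above 0, from 0.05 (Tyms, Il10+/+) to 2.76 (Rrm2, Il10-/-).

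The promoters of the 3 genes with the largest and the 2 with the smallest mean change over 48 and 72 hr are shown to set the sequence ahead of genes that moved together beside that of genes that did not pass. The rule took them among the genes with an entry in the RefSeq promoter table (31 of the 35; Mcm4, Gins1, Pole, and Prim2 have none). Each is the 250 bases before a transcript start in GRCm38.p6, read 5′ to 3′ on the gene's strand, with Uhrf1 shown for both of its starts. Capitals mark TTTGGCGC, TTTCCCGC, or TTTCGCGC, the letters searched for E2F, and CCAAT, each on either strand.
Rrm2 (chr12:24708004-24708253, plus strand): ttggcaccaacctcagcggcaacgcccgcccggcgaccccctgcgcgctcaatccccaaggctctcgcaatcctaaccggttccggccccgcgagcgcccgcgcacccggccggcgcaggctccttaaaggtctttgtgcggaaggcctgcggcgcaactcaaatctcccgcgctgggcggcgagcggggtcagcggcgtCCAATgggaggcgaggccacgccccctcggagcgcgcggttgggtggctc
Uhrf1 (chr17:56303087-56303336, plus strand): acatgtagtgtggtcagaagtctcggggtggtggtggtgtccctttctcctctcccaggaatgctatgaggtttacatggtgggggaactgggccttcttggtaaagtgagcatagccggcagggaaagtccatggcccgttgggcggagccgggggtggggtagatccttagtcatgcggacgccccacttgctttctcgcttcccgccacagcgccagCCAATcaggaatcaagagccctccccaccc
Uhrf1 (chr17:56304063-56304312, plus strand): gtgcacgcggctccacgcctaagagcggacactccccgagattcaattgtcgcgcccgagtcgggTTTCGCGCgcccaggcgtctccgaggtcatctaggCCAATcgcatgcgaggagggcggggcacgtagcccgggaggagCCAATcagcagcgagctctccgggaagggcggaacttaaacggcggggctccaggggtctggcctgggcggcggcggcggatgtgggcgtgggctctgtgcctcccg
Tk1 (chr11:117826015-117826264, minus strand): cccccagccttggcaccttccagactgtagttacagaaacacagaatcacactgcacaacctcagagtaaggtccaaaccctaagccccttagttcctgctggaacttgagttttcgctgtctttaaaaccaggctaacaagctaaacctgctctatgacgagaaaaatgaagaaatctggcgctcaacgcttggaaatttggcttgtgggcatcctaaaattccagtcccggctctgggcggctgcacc
Rpa1 (chr11:75348384-75348633, minus strand): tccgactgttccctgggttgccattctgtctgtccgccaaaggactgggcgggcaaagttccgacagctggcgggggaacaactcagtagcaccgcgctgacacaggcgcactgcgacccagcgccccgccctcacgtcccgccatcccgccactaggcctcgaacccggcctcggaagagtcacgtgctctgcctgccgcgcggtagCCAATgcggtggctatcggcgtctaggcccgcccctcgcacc
Tyms (chr5:30073626-30073875, minus strand): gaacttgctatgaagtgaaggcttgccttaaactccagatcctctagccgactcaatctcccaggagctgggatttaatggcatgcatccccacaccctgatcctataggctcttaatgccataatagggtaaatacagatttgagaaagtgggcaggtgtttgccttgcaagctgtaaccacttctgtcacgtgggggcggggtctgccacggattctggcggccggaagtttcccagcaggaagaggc

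CCAAT letters stood in the promoters shown of Rrm2, Uhrf1, and Rpa1, so in genes with large changes and in one that did not pass, and E2F letters stood only at the second start of Uhrf1. The CCAAT letters were found in 19 of the 31 genes (61.3%), against 37.5% of the 27025 genes with a promoter and 39.8% of the 9888 of these on the arrays. The E2F letters were found in 9 of the 31 (29%), against 1.78% and 3.02%. The letters TTTGAA were searched as well and are not marked above. They were found in 5 of the 31 (16.1%), against 18.3% and 13.8%. A match is a run of letters and not a shown binding site, and no match says only that these letters are not in this window. For each of the 9, the first match is given with up to 10 bases on either side, the match in capitals, to show how alike they are.
Mcm5 (chr8:75109346-75109373, plus strand): cgccaagaacTTTCGCGCcaaaacgtcc
Mcm6 (chr1:128359798-128359825, minus strand): ggcgtatgctTTTGGCGCgaaaagtgcg
Mcm7 (chr5:138172031-138172058, minus strand): atttcgaaccGCGGGAAAcagggtgtcc
Cdc6 (chr11:98908003-98908030, plus strand): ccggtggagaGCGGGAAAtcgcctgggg
Pola1 (chrX:93632276-93632303, minus strand): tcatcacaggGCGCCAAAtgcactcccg
Rfc3 (chr5:151651209-151651228, minus strand): cgtcgcacgcTTTCGCGCtc
Hells (chr19:38930918-38930945, plus strand): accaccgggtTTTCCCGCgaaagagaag
Uhrf1 (chr17:56304118-56304145, plus strand): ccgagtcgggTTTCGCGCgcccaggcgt
Dnmt1 (chr9:20952825-20952852, minus strand): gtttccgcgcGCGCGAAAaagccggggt

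The 9 with E2F letters included Rfc3, which did not pass, and Uhrf1, Mcm5, and Mcm6, which are among the 5 largest changes. Rrm2 and Tk1, at ranks 1 and 3, had no such letters in this window. Mcm5 and Mcm6 each had overlapping matches on both strands.

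The genotypes were compared in air and in their change from air. In air 28 of the 35 genes had a lower mean in Il10-/- than in Il10+/+ mice, with a median difference of -0.11. None passed in limma, against 0.00807% of all genes. Of the 35, 5 had an unadjusted p under 0.05, against 866 of all genes. The change from air was not shown to differ between genotypes for any of the 35 at 24, 48, or 72 hr, and 0% of all genes passed at each time. At an unadjusted p under 0.05 there were 12, 3, and 0 of the 35, against 891, 272, and 309 of all genes. In an F test of the interaction 0 of 35 passed, and 0% of all genes did. The lowest adjusted p was 0.323 at 24 hr, for Mcm7 and Prim2. These p-values do not show that the genotypes responded alike. The 95% interval of the difference reached a median of 0.42 to either side of the estimate at 48 hr, and it lay within 0.5 in either direction for 12 of the 35 genes and within 1 for 31. The 3 genes at 48 hr were Prim2 (0.43), Rfc4 (0.57), and Dut (0.43), each with the larger change in Il10-/- mice. These 3 were named because of their unadjusted p, so a difference between the genotypes is not shown.

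Mcm6 was the gene with the largest genotype difference in air, and 1 Il10-/- air array lay at the Il10+/+ level. The gap test among the results flagged for a closer look did not name this value. On the Il10+/+ arrays it was 8.39, 8.58, 8.30, and 8.52 in air. On the Il10-/- air arrays it was 6.72, 6.85, and 7.16, but 8.31 on the array labelled Il10-/- air 48 hr replicate 1, the array on which Il10 also lay at the Il10+/+ level. The difference in air was -1.19 (SE 0.31, adjusted p = 0.248 in limma), and without that array it was -1.54 (adjusted p = 0.018). Leaving out Il10-/- O3 24 hr replicate 1 or replicate 3, or fitting array weights, also brought it past the threshold (adjusted p = 0.0418, 0.0418, and 0.0229). The other probe set of Mcm6 differed by -0.94 in air (SE 0.22, adjusted p = 0.2). Mcm6 lies at chr1:128331575-128359705 and Il10 at chr1:131019845-131024970 in GRCm38.p6, 2.66 Mb apart, on the chromosome that carries the knockout allele. Mcm3 and Prim2, also on this chromosome, lie 110.20 and 97.35 Mb from Il10, and their differences in air were -0.12 and -0.16.

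In Il10-/- mice Mcm6 was 9.14, 8.86, and 9.05 at 48 hr and 8.59, 8.80, and 8.92 at 72 hr, all above air, and it changed by 1.76 (SE 0.33, adjusted p = 0.00193 in limma) and 1.51 (adjusted p = 0.0087). In Il10+/+ mice it was 9.28, 9.38, and 9.55 at 48 hr, again all above air, but with changes of 0.96 (SE 0.33, adjusted p = 0.131) and 0.91 (adjusted p = 0.166) it did not pass. The fit takes 1 spread for all groups of a gene, and for Mcm6 the Il10-/- air and 24-hr arrays were far more spread than the others. When the fit held no arrays but those of the 2 groups, the Il10+/+ changes passed (adjusted p = 0.00125 and 0.00181), as they did by the other probe set at 48 hr (1.36, adjusted p = 0.00251). The Il10-/- change at 48 hr did not pass with air of the same exposure time (1.28, adjusted p = 0.0677), nor that at 72 hr without O3 72 hr replicate 3 (1.43, adjusted p = 0.0586). The difference between genotypes in the change at 48 hr was 0.80, with a 95% interval from -0.18 to 1.78.

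**Figure D5:**
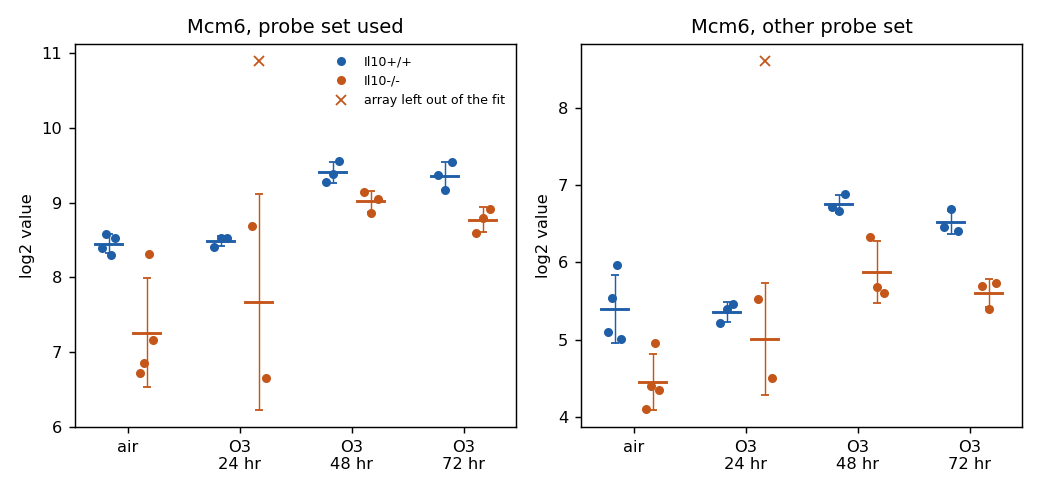
Log2 values of the 2 probe sets of Mcm6 on each array (y axis) by exposure and genotype, with group means and SD; the cross is the array left out. By the probe set used (left), 3 Il10-/- air arrays lie between 6.72 and 7.16 and 1 at 8.31, next to the Il10+/+ air arrays between 8.30 and 8.58.

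At 24 hr of O3 the genotypes had different counts, but which genes passed in Il10-/- mice depended on single arrays. In Il10+/+ mice none of the 35 was higher, against 0.0484% of all genes. None had an unadjusted p under 0.05, against 730 of all genes. The largest change was that of Mcm5, 0.43 (SE 0.23, adjusted p = 0.864 in limma), whose 3 arrays at 6.47, 6.82, and 6.69 were all above air. In Il10-/- mice Mcm7, Gins1, and Rpa2 were higher, against 1.32% of all genes. Their changes were 0.68, 0.70, and 0.55 (adjusted p = 0.00208, 0.00898, and 0.0308 in limma). In this genotype 19 of the 35 had an unadjusted p under 0.05, against 2120 of all genes. The 2 arrays behind these values differed widely. Replicate 1 was above all 4 Il10-/- air arrays for 31 of the 35 genes, with a median difference of 0.68 from the air mean, and replicate 3 was above for 7 and below all air arrays for 10, with a median difference of -0.04. Rrm2 was 7.50 on the first and 4.57 on the second, and Uhrf1 was 6.70 and 5.07. For 34 of the 35 genes replicate 1 was the higher, with a median difference of 0.62.

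Without replicate 3, 24 of the 35 genes were higher than air and 1, Pola1, was lower at 24 hr in Il10-/- mice, where 12.9% of all genes passed in either direction. The change then differed between genotypes for 16, against 4.49% of all genes. Without replicate 1, Mcm7 and Gins1 were higher and Rrm2 was lower, against 6.33% of all genes, and the change differed for 1, Rrm2, against 2.28%. Each of these fits leaves 1 array in the group, which is assumed to vary like the other groups. Markers of B cells, T cells, and red blood cells stood in the same order on these arrays. The mean over 6 B cell markers, relative to Il10+/+ air, was -0.92 on replicate 1, -1.97 on replicate 3, and 2.53 on the left-out replicate 2. The mean over 7 T cell markers was 0.18, -0.95, and 2.66, and that over 3 red blood cell markers was -0.10, -1.51, and 2.23. The mean over the 35 replication genes was 0.57, -0.17, and 2.82. Of 7 neutrophil markers 1, Mmp8, was higher at 24 hr in Il10-/- mice, with a median change of 1.18 over the list. The mean over these 7, relative to Il10+/+ air, was closer on the 2 arrays in the fit, at 0.52 and 0.79. The part of these cells in the 24-hr values was not tested.

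Marker genes of other cell types were set beside the later times as well. None of the 6 B cell and 7 T cell markers passed at any O3 time in either genotype, and their median changes at 48 hr were -0.70 and -0.43 in Il10+/+ mice. The same medians in Il10-/- mice were -0.50 and -0.12. The means over the B cell list lay between -0.31 and 0.19 in Il10+/+ air and between -1.43 and -0.28 at 48 hr, and between -1.86 and -0.34 in Il10-/- air and between -1.50 and -1.12 at 48 hr. Those over the T cell list lay between -0.06 and 0.04 and between -0.81 and -0.22 in Il10+/+ mice, and between -0.62 and 0.07 and between -0.68 and -0.07 in Il10-/- mice. Of 7 endothelial markers, 3 fell at 48 hr in Il10-/- mice (Pecam1 fell by 0.56, Cldn5 fell by 0.47, and Tie1 fell by 0.87) against 2.29% of all genes that were lower, and 2 at 72 hr, against 1.62%, and none passed in Il10+/+ mice, where the median change at 48 hr was -0.24. The Il10+/+ changes of the 7 at 48 hr ran from -0.37 to -0.20. For none of the 7 was the change shown to differ between the genotypes at 48 or 72 hr. The mean over the 7 lay between -0.11 and 0.10 in Il10+/+ air and between -0.29 and -0.22 at 48 hr, and between -0.05 and -0.01 in Il10-/- air and between -0.65 and -0.23 at 48 hr. Of 9 macrophage markers 1 (Cd68) and of the 7 neutrophil markers 1 (Mmp8) were higher at 72 hr in Il10-/- mice, against 4.25% of all genes. The median change of the 7 neutrophil markers at 72 hr was -0.84 in Il10+/+ mice and 0.67 in Il10-/- mice. The change was not shown to differ between the genotypes for any of the 7. None of them passed in Il10+/+ mice, where the changes ran from -1.40 to 0.45. The mean over the 7 lay between -0.55 and 0.59 on the Il10+/+ air arrays alone. None of the 3 red blood cell markers passed at any time, but the mean over them lay between -0.16 and 0.15 in Il10+/+ air, between -0.78 and -0.33 at 48 hr, and between -1.05 and -0.49 at 72 hr, so below air on every array. It lay between -0.74 and -0.01 in Il10-/- air, between -0.75 and -0.04 at 48 hr, and between -1.19 and -0.86 at 72 hr, so below air on every 72-hr array. The part of these cell types in the replication values was not tested.

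Replication genes outside the 35 were counted in the same way. Of 34 other replication genes measured, 14 passed at 48 hr in Il10+/+ mice, all of them upward, with a median change over the list of 0.37, against 2.71% of all genes that were higher. The Il10-/- mice had 12 that rose, against 4.04% of all genes, and 1 that fell, against 2.29%, with a median of 0.29. At 72 hr 11 and 12 were higher, against 2.47% and 4.25% of all genes, and at 24 hr 0 and 3, against 0.0484% and 1.32%. The 4 with the largest change at 48 hr in Il10+/+ mice were Dbf4, the activator of the Cdc7 kinase (1.14), the histone chaperone Asf1b (1.00), the checkpoint scaffold Topbp1 (0.84), and Pole2, a polymerase subunit (0.82). In Il10-/- mice they were Asf1b (1.41), Dbf4 (1.27), geminin, Gmnn, which holds back relicensing (1.06), and Tipin, a fork protection factor (1.06). Pold4, a small subunit of the lagging-strand polymerase, fell by 0.38 (SE 0.11, adjusted p = 0.0322 in limma). Of 7 measured S phase cyclins, their kinase, and E2F factors, 3 were higher at 48 hr in Il10+/+ mice and 2 in Il10-/- mice, against the same 2.71% and 4.04% of all genes. Ccna2, cyclin A2, changed by 1.95 and 2.50 (SE 0.26, adjusted p = 0.000115 and 3.48e-06 in limma), and cyclin E2, Ccne2, by 0.81 and 0.79 (SE 0.19). E2f8 passed in Il10+/+ mice (0.59, adjusted p = 0.0348) and did not in Il10-/- mice (0.50, adjusted p = 0.0567), and the 2 changes were not shown to differ (-0.09, SE 0.22, adjusted p = 1 in limma).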

How the data were processed

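Left lung RNA of 26 samples was hybridised to Affymetrix mouse arrays. The authors summarised probes with Robust Multichip Average in RMAExpress, whose version is not given in the sources used here, and deposited log2 values, which were used unchanged. Nothing in the labels says that replicates came from separate mice, so p-values measure the spread between these samples. Of 22690 probe sets, 20393 with 1 symbol in the platform annotation gave 12394 genes, each by its probe set with the highest mean; 691 with several symbols and 1606 with none were left out.

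Over 25 arrays, limma 3.58.1 in R 4.3.3 fitted a mean for each of 8 groups, with empirical Bayes moderation, with Benjamini-Hochberg adjustment over all genes (threshold 0.05). The left-out array was chosen with its values known. The steps were tested on simulated data. The 35 genes and all lists were chosen with earlier results of these data known. Full statistics are given for the 8 genes with the largest mean change over 48 and 72 hr and for those that passed in no comparison with air; in the other lists the 4 largest at 48 hr are named. Promoters are RefSeq's, of GRCm38.p6. Python 3.11.15 with matplotlib 3.10.9 drew the figures.

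As alternatives, the fit was repeated with all 26 arrays, with control air matched to the O3 time, with a block for the replicate number, within the 2 groups of a comparison alone, with weights on arrays, with a term for the letter c found at the end of some source names, without genes of low mean level, after median centring, on each gene's averaged probe sets, on every probe set, and without each array in turn. A two-way analysis of variance, as in the study's methods, used p under 0.01.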

Additional observations from a re-analysis of the deposited data

Results flagged for a closer look

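In 70 groups of 4 air arrays, 1 for each gene and genotype, 2 single values stood apart by a gap test at the 95% level, a level at which about 1 in 20 groups is named by chance. Fen1 was 9.034 on the array labelled Il10-/- air 48 hr replicate 1, against 8.521 to 8.598 on the other 3 Il10-/- air arrays. Tk1 was 5.479 on Il10+/+ air 24 hr replicate 2, against 5.093 to 5.126 on the other 3 Il10+/+ air arrays.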

How the results depend on the processing

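With all 26 arrays, 0 of the 35 genes passed at 48 and 72 hr in either genotype and 0 between 48 and 24 hr in either, while 15 were higher at 24 hr in Il10-/- mice and 11 passed the F test of exposure; all 140 member changes at 48 and 72 hr kept a positive sign. At 24 hr in Il10-/- mice the count of 3 became 1 with air of the same exposure time, 0 with only the arrays compared or with array weights, 9 with the letter c as a covariate, and 5 over all probe sets. The count of 12 higher at 48 than at 24 hr in Il10-/- mice became 0 with only the arrays compared, 0 with array weights, and 19 with the letter c, and the 17 of Il10+/+ mice became 26 with array weights. With array weights 1 gene, Mcm6, differed between genotypes in air, and by the methods' two-way analysis 2 genes, Mcm7 and Prim2, had an interaction. Leaving out 1 array at a time gave 7 to 25 genes higher at 48 than at 24 hr in Il10+/+ mice and 4 to 25 in Il10-/- mice, 2 to 24 higher than air at 24 hr in Il10-/- mice, 0 to 16 whose change differed between genotypes at 24 hr (without Il10-/- O3 24 hr replicate 3), and 0 to 1 that differed in air. Counts against air at 48 hr ranged from 17 to 31 and from 27 to 31, and at 72 hr from 19 to 30 and from 21 to 31. Tyms in Il10+/+ mice had changes of -0.007 at 48 hr with air of the same exposure time, -0.027 at 48 hr and -0.011 at 72 hr with the mean of its probe sets, and from -0.017 to 0.086 at 48 hr leaving out 1 array. Of 4658 values of single genes recomputed, 4279 kept their direction and side of the threshold, 266 lost the threshold, 109 gained it, and 4 changed sign. With the replicate block the counts against air at 24, 48, and 72 hr were 0, 26, and 23 for Il10+/+ and 3, 32, and 29 for Il10-/-, and those between 48 and 24 hr 19 and 13; it moved no count by over 1.5 times. The labels do not say that a number marks a shared batch or litter. In Il10+/+ mice the pairing check gave a median correlation of deviations of 0.186 between arrays with the same number and -0.114 between others, with 17 of 23 same-number pairs over 0.1, and in Il10-/- mice 0.083 and -0.051, with 9 of 19. Not every pair was over 0.1, so the block was not used in the reported values and whether a number marks a shared batch was not settled. Rfc3, Rpa1, and Tyms, which passed in no comparison as reported, each passed under some of these settings. Shares over all genes are not given beside the counts of these settings, and the number of all genes that passed also moved between fits. A moved count is thus not shown to be particular to the 35 genes. The cause of these differences was not tested.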
